A study of Caenorhabditis elegans with 24 samples.

Results

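The 21 base loci are the genes whose counted length is exactly 21 bases, and 15371 of the 46756 genes in the deposited count files met this rule. Ensembl release 115 annotates 15363 of them as piRNA genes and 7 as other non-coding RNA genes, while 1 had no match. They lie on chromosome IV in 14717 cases (95.7%), with 99 loci on chromosome I, 111 on II, 78 on III, 203 on V and 163 on X, and 7621 are on the plus strand and 7750 on the minus strand of the WBcel235 assembly. RNA of whole *Caenorhabditis elegans* was sequenced in 3 genotypes on adult day 1, following 3 h at a temperature of either 20°C or 37°C, with 4 replicates deposited for each of the 6 groups. The genotypes were wildtype (N2), *hlh-30(tm1978)* mutants (LRL31), which lack function of the transcription factor HLH-30/TFEB, and rescued animals (LRL147), which are *hlh-30(tm1978)* mutants that carry *HLH-30::GFP* under the neuronal *rab-3* promoter with the *rab-3* 3′UTR. All animals were grown on *E. coli* OP50 at 20°C, and the controls spent the same 3 h at 20°C. The deposited file of wildtype control replicate 1 held the same 46756 counts as wildtype replicate 4 at 37°C and was left out, so 23 libraries were used, with 3 replicates of wildtype at 20°C.

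In *C. elegans*, piRNAs are also called 21U-RNAs, since they are 21 bases long and begin with uridine. Most are transcribed in the germline from their own very short genes, which crowd into broad clusters on chromosome IV, and the precursors are trimmed and loaded onto the Argonaute protein PRG-1, which silences transposons and other foreign sequences with the help of secondary small RNAs. A mature piRNA is far shorter than the fragments that a library of this kind sequences with paired reads of 150 bases, and the files hold no fragment lengths. The values below are therefore called reads on the loci and not piRNA levels, and the kind of RNA behind them was not tested. The comparison of 37°C with 20°C asks how these reads changed with heat and whether the change followed the ends of neighbouring genes.

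Reads on these loci were rare in every library. Over the 23 libraries they summed to 31624 reads, against library totals of 11207383 to 28091186 reads on all genes, of which 6 were over and 17 under 20000000. A read was found in at least 1 library at 5851 loci and in none at 9520, and 195 loci averaged at least 1 read per library. The 10 loci with the most reads held 11.5% of them, the top 100 held 28.1% and the top 1000 held 64.9%. The loci are not independent of each other, as 82.6% have the start of another locus within 300 bases. The 6 deeper libraries included 3 of the 4 from heated wildtype animals and none from wildtype controls, so sums are given relative to library totals and also for the 17 shallower libraries.

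Heat raised the reads on the 21 base loci in every genotype. In CPM, the counts scaled to a library total of 1000000 reads on all genes, the 3 wildtype control libraries had 22.7, 25.3 and 43.0, and the 4 heated ones 114.8, 129.7, 160.4 and 150.01. Control *hlh-30(tm1978)* mutants had 19.5, 30.9, 22.8 and 29.2 CPM, against 120.1, 110.8, 150.1 and 100.7 CPM after heat. Rescued controls had 23.8, 29.5, 25.99 and 33.8 CPM, against 76.7, 101.4, 122.4 and 105.4 CPM after heat. The heated libraries of all genotypes lay above all of the controls, and the lowest heated library was rescued replicate 1. The wildtype mean rose from 30.3 ± 11.1 to 138.7 ± 20.4 CPM (SD, n = 3 and 4). The mutant mean rose from 25.6 ± 5.36 to 120.4 ± 21.3 CPM, and that of rescued animals from 28.3 ± 4.37 to 101.5 ± 18.8 CPM (SD, n = 4).

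The change of log2 CPM with heat was 2.24 in wildtype, 2.24 in mutants and 1.84 in rescued animals, with a mean of 2.11. In a 2-sided exact permutation test of the temperature labels within genotype this mean had p = 5.83e-06, the smallest value that the design allows. Within 1 genotype the exact permutation p was 0.0286 each time, which is again the smallest possible. The change was 1.97 in the 17 shallower libraries (exact permutation p = 0.000357) and 2.39 without the 10 loci with the most reads. Scaling by library total put the median of all genes that passed the count filter at -0.10 in wildtype, -0.11 in mutants and -0.07 in rescued animals on the log2 scale. With TMM-scaled library sizes, which take out this shift, the change on the loci was 2.21. In RNA from whole animals, more cells that make a transcript and more of it per cell cannot be told apart.

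**Figure D1:**
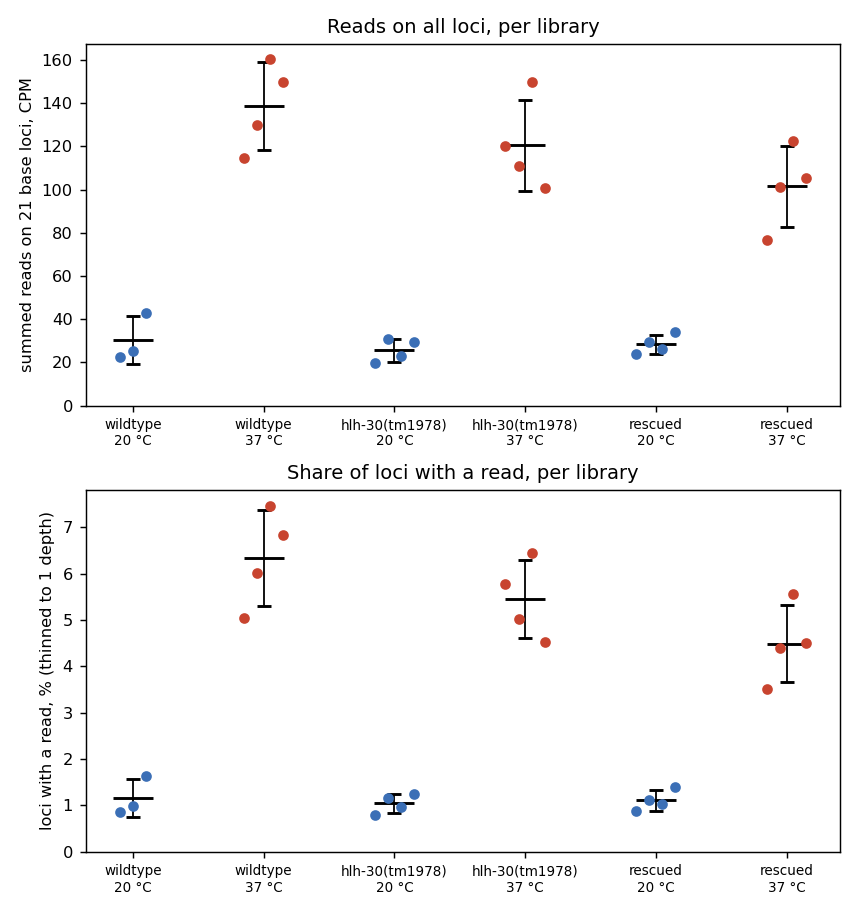
Summed reads on the 21 base loci in CPM (top) and the share of the loci with at least 1 read after thinning every library to the smallest library total (bottom), by genotype and temperature. Points are libraries, the bar is the group mean and the whisker is 1 SD. All libraries at 37°C lie above all at 20°C, from 76.7 to 160.4 CPM against 19.5 to 43.0 CPM.

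The rise was spread over many loci. After thinning each library to the smallest total, between 0.859% and 1.63% of the loci had a read in wildtype at 20°C and between 5.05% and 7.46% at 37°C. In mutants the share went from between 0.795% and 1.24% to between 4.53% and 6.44%, and in rescued animals from between 0.875% and 1.401% to between 3.51% and 5.55%. The mean gain was 4.32 percentage points (exact permutation p = 5.83e-06), and 6.30 points without thinning. Loci with a read only at 37°C numbered 3551 in wildtype, 2558 in mutants and 2092 in rescued animals. Those with a read only at 20°C numbered 146, 275 and 278, and those with reads at both temperatures 344, 325 and 317. These counts are not thinned, and the wildtype group at 20°C had 1 library fewer.

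Each chromosome gave a higher sum at 37°C, and chromosome IV, which holds 95.7% of the loci, carried nearly all of it. Chromosome IV loci went from 25.4 ± 9.83 to 127.6 ± 20.5 CPM in wildtype (SD, n = 3 and 4). For mutants these means were 21.3 ± 4.53 and 110.9 ± 19.2 CPM, and for rescued animals 23.7 ± 4.30 and 91.7 ± 16.4 CPM (SD, n = 4). Their mean log2 change was 2.24, against 0.97 on chromosome I, 0.80 on II, 1.09 on III, 1.49 on V and 1.44 on X. Over the 6 chromosomes the exact permutation p-values with Benjamini-Hochberg adjustment were 8.75e-06 for II, IV, V and X, 4.90e-05 for III and 0.000898 for I. These join the 3 genotypes. Within mutants and within rescued animals, chromosome I (unadjusted exact permutation p = 0.114 and 0.143) and chromosome III (0.0571 in both) did not pass. The order of the chromosomes rested on few loci. Without the 10 loci with the most reads the change was 2.48 on IV, 2.31 on II and 2.44 on III, while on X it was 0.33 with an adjusted exact permutation p of 0.13. The X sum went from 0.896 to 2.81 CPM in wildtype, 0.729 to 2.47 CPM in mutants and 1.07 to 2.22 CPM in rescued animals. The X locus 21ur-12946 alone went from 0 to 1.94, 1.33 and 0.613 CPM in these genotypes.

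Along chromosome IV, the rise was uneven between windows of 1000000 bases with at least 100 loci. From 15000001 to 16000000 the 3519 loci went from 0.785 to 8.86 CPM per 1000 loci in wildtype, and the mean log2 change over the genotypes was 3.20. From 16000001 to 17000000 the 2952 loci went from 1.54 to 12.1 CPM per 1000 loci in wildtype, with a mean change of 3.39. In both windows most loci (59.5% and 64.4%) lay over 5 kb from any counted longer gene. The other 6 windows held 11.1% to 25.6% such loci and rose by 0.65 to 2.09 on the log2 scale, the least from 4000001 to 5000000 with 279 loci. Adjusted exact permutation p-values were 6.66e-06 in 7 windows and 0.00656 in that one.

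The loci were then sorted by their position against longer genes. Exons came from the coordinates in the count files, and a longer gene was taken as counted where it averaged at least 10 reads per library, which held for 13472 genes. An exon of a longer gene overlapped 1038 loci, 1701 lay in an intron on the strand of the host gene and 1830 in an intron on the other strand. Outside counted genes, the nearest gene end was a 3′ end within 1 kb for 690 loci and at 1 to 5 kb for 1614, and a 5′ start within 1 kb for 764 and at 1 to 5 kb for 1941. The remaining 5793 loci were over 5 kb from any counted gene, 5731 of them on chromosome IV. Longer genes under that average were used for exons only, so loci in this class can lie beside such a gene or in its intron.

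At 20°C the reads per locus were highest in introns and within 1 kb of counted genes. In wildtype, loci in introns had 3.92 ± 1.47 CPM per 1000 loci on the host strand and 4.28 ± 1.17 on the other strand, and those within 1 kb had 4.26 ± 0.367 after a 3′ end and 4.62 ± 2.06 before a 5′ start (SD, n = 3). Farther out the values were 0.858 ± 0.643 at 1 to 5 kb after a 3′ end, 2.06 ± 0.823 at 1 to 5 kb before a 5′ start and 0.667 ± 0.386 at over 5 kb. Loci overlapping an exon had 0.0908 ± 0.0373 CPM per 1000 loci, with 137 reads in all libraries together. The sources do not state the strand setting of the counting or how reads over 2 overlapping genes were assigned, so the strand on which a read arose cannot be told.

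The distant loci had few reads per locus at 20°C and more in every library at 37°C. In wildtype, the loci over 5 kb away had 0.297, 0.636 and 1.07 CPM per 1000 loci at 20°C and 6.64, 7.47, 9.99 and 8.68 at 37°C. In mutants they had 0.198, 0.455, 0.277 and 0.666 at 20°C and 6.35, 6.58, 9.02 and 5.21 at 37°C. In rescued animals they had 0.156, 0.208, 0.201 and 0.599 at 20°C and 3.32, 4.29, 4.62 and 4.45 at 37°C. The groups did not overlap in any genotype, and rescued replicate 4 was the highest of its group at 20°C.

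**Figure D2:**
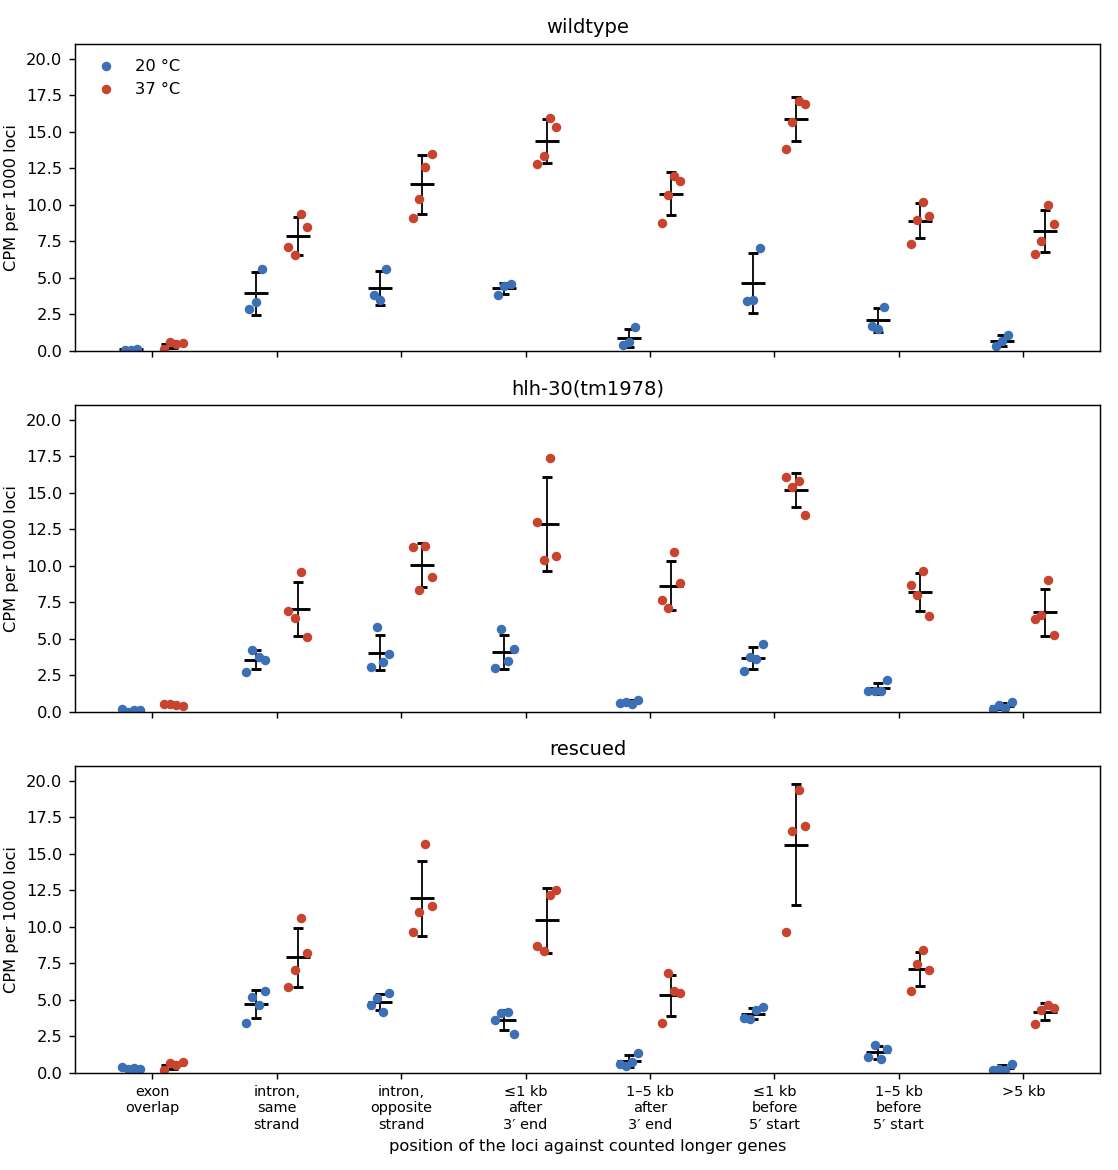
Reads on the 21 base loci in CPM per 1000 loci, by the position of the loci against counted longer genes, with 1 panel per genotype. Points are libraries at 20°C (blue) and 37°C (red), bars are group means and whiskers are 1 SD. Loci over 5 kb away rose from 0.667 to 8.19 in wildtype, and those within 1 kb after a 3′ end from 4.26 to 14.3.

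The mean log2 change with heat was 3.99 at over 5 kb, 3.47 at 1 to 5 kb after a 3′ end and 2.30 at 1 to 5 kb before a 5′ start. It was 1.93 within 1 kb before a 5′ start and 1.64 within 1 kb after a 3′ end. In introns it was 1.35 on the strand opposite to the host and 0.92 on the host strand, and it was 1.52 for loci overlapping an exon. Without the 10 loci with the most reads, the changes in introns were 1.45 on the host strand and 1.51 on the opposite strand. Over the 3 genotypes together, all 8 classes passed the exact permutation test adjusted over the classes (adjusted p = 6.66e-06, and 0.000455 for the exon class). Within 1 genotype, the exon class did not pass in wildtype or rescued animals (unadjusted exact permutation p = 0.0857 and 0.171). The order of the classes depended on the scale. In differences of CPM per 1000 loci, the gain was 11.4 within 1 kb before a 5′ start, 8.56 within 1 kb after a 3′ end, 7.47 at 1 to 5 kb after a 3′ end, 6.40 at 1 to 5 kb before a 5′ start and 5.93 at over 5 kb.

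The differences between classes were tested on both scales. The log2 ratio of loci over 5 kb away to loci within 1 kb after a 3′ end rose by 2.36 with heat, and their ratio to loci within 1 kb before a 5′ start rose by 2.06 (adjusted exact permutation p = 1.46e-05 for both). On the linear scale the gain at over 5 kb minus that within 1 kb after a 3′ end was -2.63 CPM per 1000 loci (adjusted exact permutation p = 8.75e-05), and minus that within 1 kb before a 5′ start it was -5.51 (adjusted exact permutation p = 1.46e-05). Between 1 to 5 kb and within 1 kb after a 3′ end, the linear gain differed by -1.09 CPM per 1000 loci, which did not pass the test (adjusted exact permutation p = 0.0917), while their log2 ratio rose by 1.83 (adjusted exact permutation p = 3.89e-05). In introns, the gain was larger on the strand opposite to the host gene by 3.20 CPM per 1000 loci (adjusted exact permutation p = 1.94e-05). The log2 ratio of the opposite to the host strand rose by 0.43 (adjusted exact permutation p = 0.000372). Without the 10 loci with the most reads, the log2 changes were 1.45 on the host strand and 1.51 on the opposite strand. The difference between strands was not tested without those loci.

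The distance profile showed where the reads decreased away from counted genes. In wildtype at 20°C, loci within 250 bases after a 3′ end had 6.59 ± 1.10 CPM per 1000 loci, those at 250 to 500 bases 4.80 ± 0.655, those at 500 to 1000 bases 1.93 ± 0.910 and those at 1000 to 2000 bases 0.857 ± 0.740 (SD, n = 3). At 37°C the same bins had 16.7 ± 2.57, 16.4 ± 2.79, 11.1 ± 1.00 and 8.40 ± 1.25 (SD, n = 4). Beyond 10000 bases the 1585 loci whose nearest gene end was a 3′ end had 1.14 ± 0.915 at 20°C and 12.4 ± 1.999 at 37°C, above the value at 1000 to 2000 bases. Before 5′ starts the wildtype values at 37°C fell from 19.1 ± 1.497 within 250 bases to 5.48 ± 0.959 at 5000 to 10000 bases and were 6.74 ± 1.57 beyond that. The mean was higher at 37°C than at 20°C in all bins of the 3 genotypes.

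**Figure D3:**
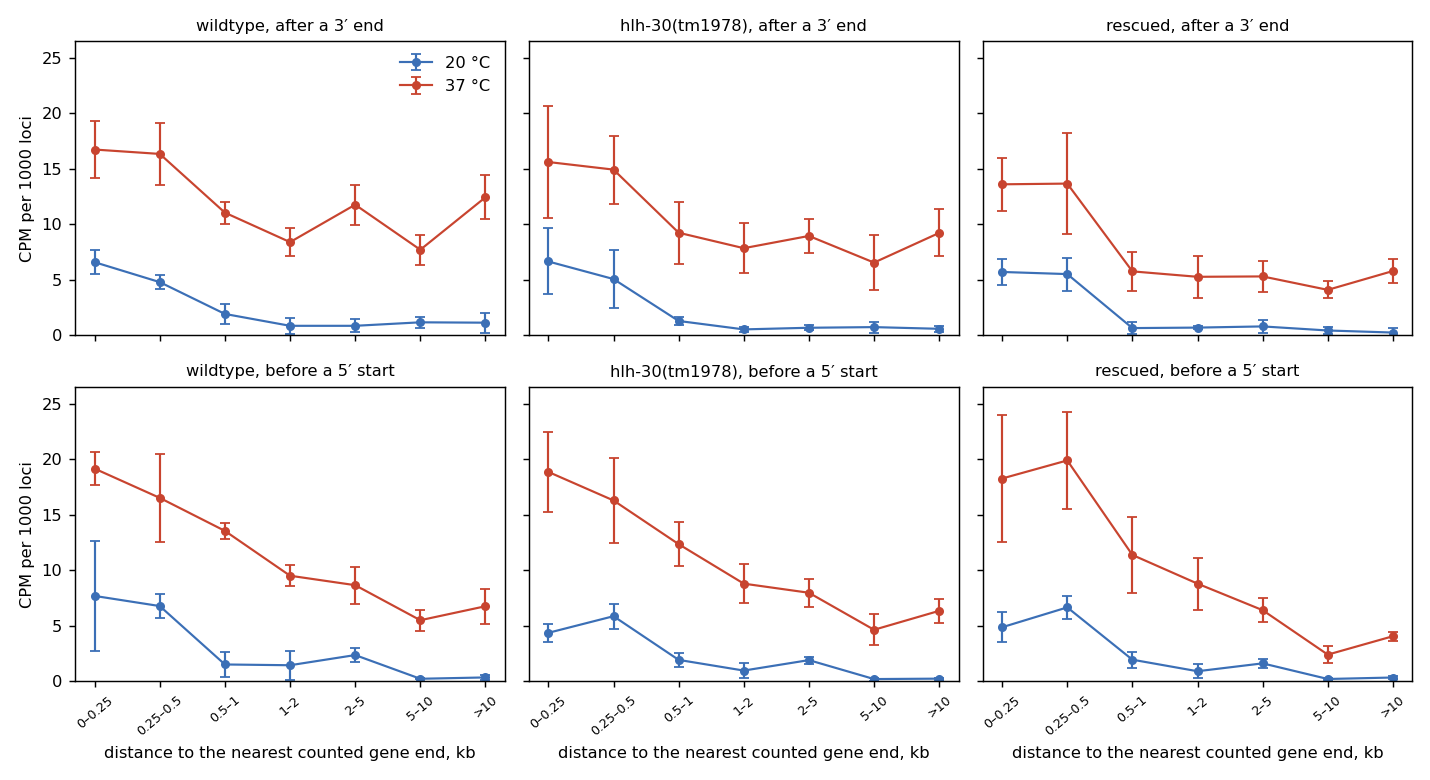
Mean CPM per 1000 loci of 21 base loci outside counted genes, by the distance to the nearest counted gene end in kb, after 3′ ends (top row) and before 5′ starts (bottom row), in the 3 genotypes. Blue is 20°C, red is 37°C and whiskers are 1 SD over libraries. Values were highest within 500 bases of counted genes at both temperatures, and at 37°C the loci beyond 10 kb kept 12.4 after 3′ ends and 6.74 before 5′ starts in wildtype.

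Whether the reads followed the genes beside them was asked by dividing the reads on the loci by those on their host or neighbour genes in the same library. Loci in introns had 1.01, 0.924 and 1.39 reads per 1000 host gene reads in wildtype at 20°C and 2.87, 3.05, 3.19 and 3.26 at 37°C. Loci within 1 kb after a 3′ end had 0.279, 0.266 and 0.288 reads per 1000 neighbour reads at 20°C and 1.02, 0.967, 0.872 and 0.795 at 37°C. Loci within 1 kb before a 5′ start had 0.184, 0.169 and 0.357 at 20°C and 0.805, 0.825, 0.711 and 0.726 at 37°C. The temperatures did not overlap for any of the 3 ratios, nor did they in mutants and rescued animals.

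The log2 ratio rose by 1.31 for intronic loci, by 1.67 after 3′ ends and by 1.91 before 5′ starts as a mean of the genotypes (adjusted exact permutation p = 7.77e-06 for each). The rise after 3′ ends thus came with a rise before 5′ starts, and the 2 were compared directly. The log2 of the first ratio over the second changed by -0.07 in wildtype, -0.37 in mutants and -0.31 in rescued animals, with a mean of -0.25 that did not pass the test (exact permutation p = 0.106). This comparison was not stable. Without the 10 loci with the most reads it was 0.41 (adjusted exact permutation p = 0.00109), with loci on the strand of the neighbour only it was 0.39 (0.0602), and without replicate 4 it was -0.44 (0.0025).

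**Figure D4:**
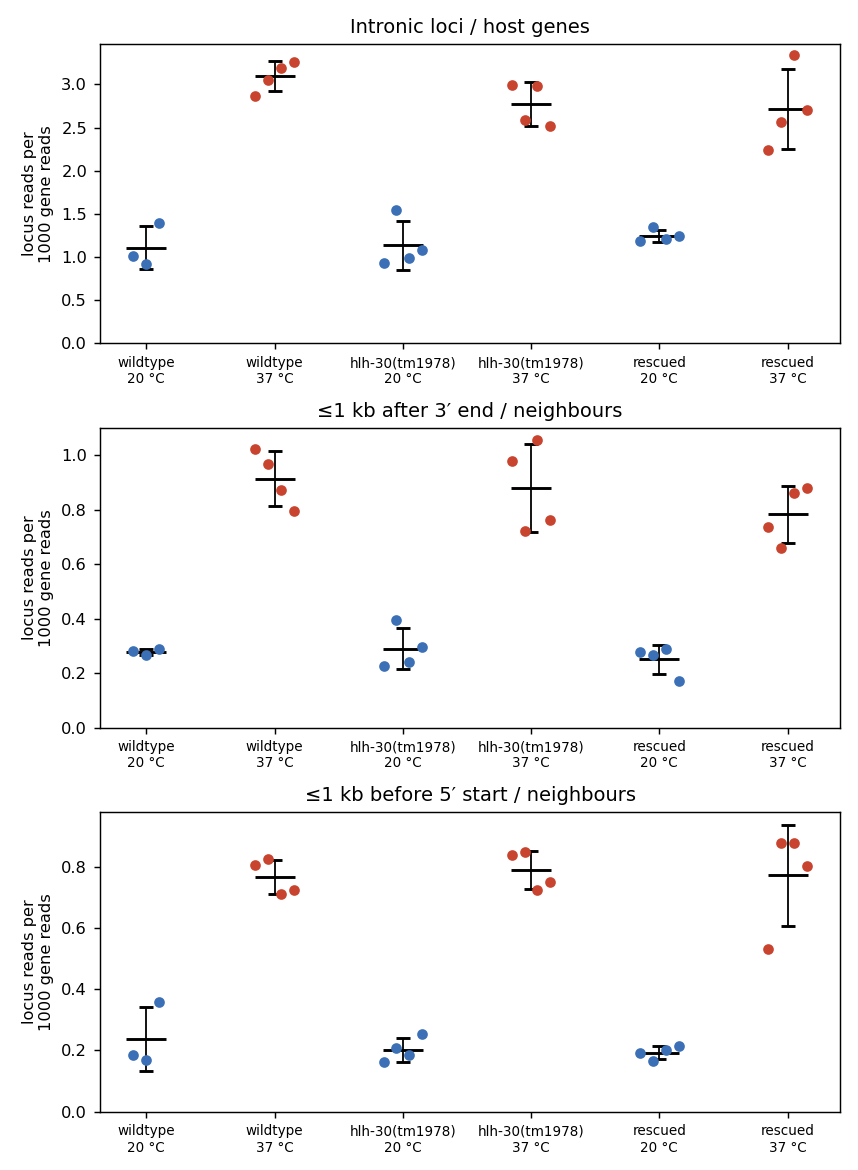
Reads on 21 base loci per 1000 reads on the genes beside them, for intronic loci and their host genes (top), loci within 1 kb after a 3′ end (middle) and loci within 1 kb before a 5′ start (bottom). Points are libraries, bars are group means and whiskers are 1 SD. The heated libraries lie above the controls in all 3 panels, at 2.24 to 3.34 against 0.924 to 1.55 for introns.

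The loci were also grouped by the heat response of the gene they lay in or beside, as called by edgeR on these libraries. In wildtype, the 696 loci in introns of the 95 hosts that fell went from 5.22 ± 1.12 to 6.50 ± 0.603 CPM, while the summed reads of the hosts fell by 1.37 on the log2 scale. The 2479 loci in the 229 hosts that were not called went from 7.38 ± 2.51 to 22.8 ± 4.39 CPM, and the 356 loci in the 41 hosts that rose went from 1.90 ± 1.03 to 4.87 ± 1.08 CPM. For loci in falling hosts the 37°C and 20°C libraries overlapped in each genotype, with log2 changes of 0.33 in wildtype, 0.69 in mutants and 0.30 in rescued animals (adjusted exact permutation p of 0.154, 0.129 and 0.267). In mutants the 856 loci of this group went from 5.36 to 8.13 CPM. In wildtype and mutants the group holds 21ur-10296 in *eps-8*. That locus alone went from 1.99 to 0.787 CPM in wildtype and from 2.34 to 0.790 CPM in mutants. The group also holds 21ur-8696 in *elo-6*, which went from 0.427 to 0.940 CPM in wildtype and from 0.459 to 1.43 CPM in mutants. The change without either locus was not computed. Outside genes, wildtype loci within 1 kb after the 3′ end of falling neighbours rose by 2.14 while the neighbours fell by 1.32 (adjusted exact permutation p = 0.0351 for the loci), while in rescued animals the corresponding 55 loci overlapped between temperatures with a change of 0.40 (adjusted exact permutation p = 0.657). Of the 27 groups formed this way, 22 had every heated library above every control library. In mutants the loci after falling neighbours rose by 1.47 (adjusted exact permutation p = 0.0351). Before the 5′ start of falling neighbours, the change was 1.15 in wildtype and 1.99 in mutants (0.0351 for both) and 1.49 in rescued animals, which did not pass (adjusted exact permutation p = 0.101). The differences between groups of hosts were not tested.

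No difference between genotypes in the heat response of the summed loci passed the test. The log2 change in mutants minus that in wildtype was 0.00, that in rescued animals minus mutants -0.41 and that in rescued animals minus wildtype -0.40, with exact permutation p-values adjusted over the 3 pairs of 0.996, 0.384 and 0.384. The same held for loci over 5 kb away, where the differences were 0.42, -0.18 and 0.24, and for intronic loci, where they were -0.08, -0.13 and -0.21 (adjusted exact permutation p of 0.803 for all 6). This does not show that the genotypes responded alike. On the linear scale, loci over 5 kb away gained 7.53, 6.39 and 3.88 CPM per 1000 loci in wildtype, mutants and rescued animals. Differences between genotypes were not tested on that scale.

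Single loci could be tested in few cases. An average of at least 10 reads over the libraries was reached by 7 of the 15371 loci, which entered the edgeR quasi-likelihood fits with 13482 genes in all. At an adjusted p under 0.05, 2 loci rose and 1 fell in wildtype, 3 rose and 1 fell in mutants, and 2 rose and 1 fell in rescued animals. The share of all tested genes called higher was 15% in wildtype, 21.3% in mutants and 11.7% in rescued animals, and the share called lower was 17.1%, 16.8% and 8.72%. With no filter beyond 1 read in any library, 69 of 4041 loci rose and 3 fell in wildtype, 115 and 3 of 3158 did so in mutants, and 54 and 3 of 2687 in rescued animals. Over all genes without the filter, 9.08%, 13.4% and 9.27% were called higher and 8.27%, 9.91% and 5.62% were called lower. A locus with reads only after heat enters these fits through the heated libraries, so the counts of loci that rose are a description and no support for the rise. The genotype by temperature interaction called 0 of the 7 loci for each pair, with 0%, 0.0445% and 3.07% of all genes called for mutants against wildtype, rescued against mutants and rescued against wildtype. At an unadjusted p under 0.05 the count was 0, 0 and 1 of the 7 loci, and DESeq2 called 0 as well. One of the 7, 21ur-12946, had no reads in any control library. Its interaction had SE of 910, 1661 and 2435 for these pairs on the log2 scale. It could not have been called, so the interaction fits do not decide whether its heat response differed between genotypes.

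The 2 loci called higher in all 3 genotypes had 0 to 2 reads in each library at 20°C. They reached the minimum average only through the heated libraries, so their values are given as a description, with no test. The piRNA locus 21ur-12946 (WBGene00166186, chromosome X, 2995822 to 2995842, minus strand) lies 14814 bases from the nearest counted gene, *aakg-3*, which encodes a regulatory subunit of AMP-activated protein kinase. It had 0 reads in all 11 libraries at 20°C, while heated wildtype had 1.43, 2.06, 1.73 and 2.52 CPM. Heated mutants had 1.06, 1.33, 1.83 and 1.11 CPM, and heated rescued animals 0.429, 0.755, 0.949 and 0.317 CPM. Against a floor of 3 reads over each control group, the locus was at least 27.2-fold higher in wildtype, at least 28.5-fold higher in mutants and at least 12.0-fold higher in rescued animals. Meanwhile *aakg-3* fell by 2.36 in wildtype, 2.44 in mutants and 1.63 in rescued animals on the log2 scale (edgeR quasi-likelihood test, adjusted p = 0.00212, 0.00191 and 0.0104).

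The second, 21ur-15575 (WBGene00173505, chromosome IV, 16316059 to 16316079, minus strand), lies 4060 bases after the 3′ end of *K03D3.5* on the same strand. No wildtype control had a read on it, and the heated wildtype libraries had 1.70, 3.20, 0.746 and 1.44 CPM, which is at least 24.9-fold higher. The mutant mean went from 0.0347 ± 0.0694 to 1.32 ± 0.552 CPM and the rescued mean from 0.0528 ± 0.0356 to 0.377 ± 0.262 CPM (SD, n = 4). The gene *K03D3.5* had 0.0347 ± 0.0694 CPM in control and 0.707 ± 0.202 CPM in heated mutants, 0 and 0.172 ± 0.129 CPM in rescued animals (SD, n = 4), and 0.578 ± 0.939 and 3.51 ± 3.31 CPM in wildtype (SD, n = 3 and 4).

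The only tested locus that fell, 21ur-10296 (WBGene00169197, chromosome IV, 14896338 to 14896358, plus strand), lies in an intron of *eps-8* on its strand. The host encodes an actin-binding protein of the EPS8 family. The locus had 1.503, 2.09 and 2.36 CPM in wildtype controls, against 0.892, 0.854, 0.510 and 0.893 CPM after heat. Control mutants had 2.21, 2.36, 2.52 and 2.27 CPM, against 0.719, 0.814, 0.915 and 0.713 CPM after heat, and neither pair of groups overlapped, while in rescued animals the ranges of 1.66 to 3.98 and 0.343 to 1.81 CPM did. The log2 change was -1.23 in wildtype, -1.42 in mutants and -1.29 in rescued animals (SE 0.35, 0.27 and 0.42, edgeR quasi-likelihood test, adjusted p = 0.0271, 0.00141 and 0.0444). The host *eps-8* changed by -1.79, -1.44 and -0.66 (adjusted p = 0.00058, 0.000122 and 0.155). In wildtype and in rescued animals, the call of the locus was lost without any 1 of replicates 2, 3 and 4.

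In contrast, 21ur-8696 (WBGene00173920, chromosome IV, 5386925 to 5386945, plus strand) lies in an intron of *elo-6*, on the other strand, and did not follow it. The fatty acid elongase gene *elo-6* fell by 1.41, 1.51 and 1.503 on the log2 scale in wildtype, mutants and rescued animals (edgeR quasi-likelihood test, adjusted p = 0.00341, 1e-05 and 0.000531). The locus went from 0.427 ± 0.259 to 0.940 ± 0.354 CPM in wildtype (SD, n = 3 and 4). Control mutants had 0.164, 1.32, 0.217 and 0.138 CPM of it, and heated ones 1.44, 1.63, 0.832 and 1.82 CPM. Its log2 change of 1.82 in mutants passed the test (SE 0.61, adjusted p = 0.0322), with an overlap through replicate 2 at 20°C. Without replicate 1 or 4 the adjusted p was 0.117 and 0.175. The changes of 1.22 in wildtype and 0.50 in rescued animals did not pass (adjusted p = 0.116 and 0.577).

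The other 3 tested loci did not pass the threshold in any genotype. The locus 21ur-14269 (WBGene00169029, chromosome III, 4340625 to 4340645) lies 161 bases after the 3′ end of *cdk-12*, which encodes a kinase of the RNA polymerase II tail, and had log2 changes of 1.03, 0.72 and 0.85 in wildtype, mutants and rescued animals (edgeR, adjusted p = 0.0678, 0.199 and 0.163). The locus 21ur-10387 (WBGene00166235, chromosome IV, 13843734 to 13843754), in an intron and on the strand opposite to its host, had changes of 0.83, 0.15 and 0.72 (adjusted p = 0.295, 0.775 and 0.181). The non-coding RNA gene *F39E9.25* (WBGene00195025, chromosome II, 3309254 to 3309274), which shares its symbol with another 21 base locus, had between 1.29 and 1.88 CPM in wildtype controls and between 1.25 and 1.57 CPM in heated wildtype. Its changes were -0.03, 0.51 and 0.51 in wildtype, mutants and rescued animals (edgeR, adjusted p = 0.945, 0.213 and 0.347).

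Among loci under the filter, a pair on chromosome IV lay within 1 kb of each other, each on the strand opposite to its neighbour gene. The first, 21ur-743 (WBGene00047311, 13646066 to 13646086, plus strand), starts 143 bases before the 5′ start of *srz-29*, a chemoreceptor gene. It had no reads in any control library and 0.803, 1.17, 0.667 and 0.311 CPM in wildtype at 37°C, which is at least 10.4-fold higher, and it was at least 29.4-fold higher in mutants and at least 13.2-fold higher in rescued animals. The gene *srz-29* itself was near 0 at 20°C and had 3.18 ± 0.184 CPM in wildtype at 37°C (SD, n = 4). The other, 21ur-3984 (WBGene00046833, 13646547 to 13646567, plus strand), starts 168 bases after the 3′ end of *ule-4*, which encodes a protein of the uterine lumen, and had 0.644, 0.867 and 0.278 CPM in wildtype controls and 0.625, 0.214, 1.02 and 1.13 CPM in heated wildtype, with overlap. On chromosome V, *Y60A3A.29* (WBGene00189981, 19908448 to 19908468) lies 297 bases after the 3′ end of the meiotic checkpoint kinase gene *chk-2*. Each wildtype control library had 2 reads on this locus, with a mean of 0.142 CPM, while heated wildtype had 0.702 ± 0.296 CPM (SD, n = 4). In the other genotypes the temperatures overlapped. Mean CPM at 20°C was 0.226 ± 0.140 for mutants and 0.426 ± 0.263 for rescued animals (SD, n = 4). At 37°C these means were 0.412 ± 0.234 and 0.848 ± 0.339. The gene *chk-2* rose by 1.39, 1.16 and 0.87 in wildtype, mutants and rescued animals (SE 0.35, 0.25 and 0.21, edgeR adjusted p = 0.0164, 0.0028 and 0.011).

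Genes of the piRNA pathway were counted from a list of 34, of which 32 were found by symbol and tested. In wildtype 12 were higher and 2 lower at 37°C, in mutants 12 and 4, and in rescued animals 7 and 0, where 15%, 21.3% and 11.7% of all genes tested were higher and 17.1%, 16.8% and 8.72% lower. The list had a median log2 change of 0.30, 0.21 and 0.09 against 0.01, 0.04 and 0.01 over all genes tested (edgeR, adjusted p under 0.05). The Argonaute gene *prg-1* rose from 118.6 ± 45.5 to 266.2 ± 63.8 CPM in wildtype and from 126.9 ± 27.0 to 230.3 ± 52.4 CPM in mutants (log2 change 1.30 and 1.03, adjusted p = 0.0107 and 0.00107), and had 0.22 in rescued animals (adjusted p = 0.493). Among factors of piRNA gene transcription, *snpc-4* rose by 0.76 in wildtype and 0.56 in mutants (edgeR adjusted p = 0.0204 and 0.00369), while *prde-1* fell by 0.67 and 0.43 (adjusted p = 0.0163 and 0.0154). The forkhead gene *unc-130* also fell, by 3.07 and 1.72 (adjusted p = 0.00317 and 0.0115). In rescued animals these 3 genes had changes of 0.35, -0.11 and -1.13, which did not pass (adjusted p = 0.126, 0.597 and 0.0617). The piRNA biogenesis genes *tofu-1* and *tofu-6* rose by 0.46 and 1.17 in wildtype and by 0.47 and 0.78 in mutants (highest adjusted p = 0.035), and did not pass in rescued animals (0.0774 and 0.116). The biogenesis gene *pid-3* and the germ granule gene *pid-2* rose in all 3 genotypes, by 1.15, 0.91 and 0.64 and by 1.87, 1.74 and 0.93 (highest adjusted p = 0.0335). Of the nuclear and cytoplasmic Argonautes downstream of PRG-1, *hrde-1* and *wago-1* rose in all 3 genotypes, by 2.01, 1.72 and 0.76 and by 2.08, 1.62 and 1.16 (highest adjusted p = 0.0332). So did *mut-7* and the helicase gene *znfx-1*, by 1.396, 1.08 and 0.61 and by 1.10, 1.01 and 0.70 (highest adjusted p = 0.0489), while *deps-1* rose by 1.34 and 1.21 in wildtype and mutants (0.011 and 0.00015) and had 0.63 in rescued animals (adjusted p = 0.0567).

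Genes of 3′ end formation and the Integrator complex, which cleaves nascent transcripts, were counted from a second list. Of 23 tested, wildtype had 7 higher and 4 lower, mutants 10 and 5, and rescued animals 3 and 3, against the same 15%, 21.3% and 11.7% of all genes higher and 17.1%, 16.8% and 8.72% lower. The median log2 changes were 0.29, 0.26 and 0.06. The cleavage factor genes *cpf-1* and *cpf-2* rose by 0.71 and 0.72 in wildtype (edgeR adjusted p = 0.00635 and 0.0245), while *cpsf-1* and *cpsf-2* fell by 0.78 and 0.62 (adjusted p = 0.0176 and 0.0119). The same genes changed by 0.47, 0.71, -0.51 and -0.34 in mutants (highest adjusted p = 0.0309) and by 0.23, 0.26, -0.39 and -0.31 in rescued animals, where none passed (lowest adjusted p = 0.101). The cleavage factor gene *cfim-1* rose by 0.68 and 0.47 in wildtype and mutants (highest adjusted p = 0.0304) and had 0.22 in rescued animals (adjusted p = 0.427). In the Integrator complex *ints-7* rose by 1.29, 0.96 and 0.64 and *ints-3* by 0.99, 1.04 and 0.89 in wildtype, mutants and rescued animals, while *ints-2* fell by 0.85, 0.69 and 0.52 and *ints-4* by 0.56, 0.57 and 0.53 (highest adjusted p = 0.0287). The subunit gene *ints-8* rose by 1.04, 0.57 and 0.57 (highest adjusted p = 0.0255), and *ints-5* rose by 1.03 and 0.98 in wildtype and mutants (highest adjusted p = 0.0363) with 0.41 in rescued animals (adjusted p = 0.145).

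Markers of germline and soma changed as well. Of 18 germline and oocyte markers, wildtype had 6 higher and 0 lower, mutants 8 and 2, and rescued animals 4 and 0 (edgeR, adjusted p under 0.05), against 15%, 21.3% and 11.7% of all genes higher and 17.1%, 16.8% and 8.72% lower. Their median log2 changes were 0.69, 0.45 and -0.04. The genes *cbd-1*, for an eggshell protein, *rme-2*, for the yolk receptor, *pgl-3*, for a P granule protein, and *rec-8*, for a meiotic cohesin, rose in all 3 genotypes, between 1.59 and 2.61 in wildtype and between 0.63 and 1.47 in rescued animals (highest adjusted p = 0.0424), and *puf-5*, for an RNA-binding protein of oocytes, and *htp-3*, for a protein of the meiotic chromosome axis, rose in wildtype and mutants (highest adjusted p = 0.0291) and had 0.19 and 0.56 in rescued animals (adjusted p = 0.689 and 0.0855). The summed level of the germline and oocyte markers ranged from 1629 to 3757 CPM in wildtype controls and from 4232 to 7176 CPM after heat. It ranged from 2023 to 3590 and from 3447 to 5387 CPM in mutants. In rescued animals the ranges were 2106 to 5214 and 3596 to 4848 CPM. They overlapped in mutants and in rescued animals. Of 8 sperm markers 6 were tested and none was lower, and beside the same shares of all genes 1, *spe-9*, was higher in each genotype, by 4.68, 4.55 and 4.47 (highest adjusted p = 0.00167). The summed sperm level went from 8.42 ± 6.79 to 13.5 ± 7.07 CPM in wildtype (SD, n = 3 and 4), from 3.94 ± 0.876 to 8.49 ± 3.06 CPM in mutants, without overlap, and in rescued animals from 15.6 ± 4.76 to 23.4 ± 6.53 CPM (SD, n = 4). Of 7 markers of somatic tissues, wildtype had 1 higher and 3 lower, mutants 2 and 3, and rescued animals 2 and 2, beside the same shares of all genes. The yolk protein gene *vit-2* fell by 3.30, 2.72 and 1.57 (highest adjusted p = 0.00317), and *vit-6* fell by 3.50, 2.91 and 1.68 (highest adjusted p = 0.00342). The intestinal esterase gene *ges-1* fell by 2.87 and 2.16 in wildtype and mutants (highest adjusted p = 0.00012) and had -0.74 in rescued animals (adjusted p = 0.0579), while the cuticle collagen gene *col-19* rose by 1.37, 1.32 and 1.45 (highest adjusted p = 0.0225). The summed level of the somatic markers ranged from 49058 to 99344 CPM in wildtype controls and from 5047 to 8820 CPM after heat. Most of this sum came from the yolk protein genes. Its wildtype means were 71654 CPM at 20°C and 7359 CPM at 37°C. Of these, *vit-2* held 35350 and 3286 CPM and *vit-6* held 35519 and 2876 CPM. Taken per gene, the 7 somatic markers had a median log2 change of -0.43 (wildtype), -0.19 (mutants) and 0.09 (rescued). The fall of the sum is thus no measure of soma as a whole. The part of a change in tissue share in the result on the loci was not tested.

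Other short or non-coding genes gave a frame for the size of the change. Summed reads on 634 tRNA genes rose from 4.31 ± 0.511 to 73.5 ± 26.3 CPM in wildtype and those on 129 snRNA genes from 1.72 ± 0.925 to 27.4 ± 4.06 CPM (SD, n = 3 and 4). As a mean of the genotypes, the log2 change was 4.15 for tRNA genes, 4.08 for snRNA genes, 1.98 for snoRNA genes, 1.55 for lincRNA genes, 1.27 for miRNA genes, 0.83 for ncRNA genes and 0.52 for 1293 chemoreceptor genes. The change on the 21 base loci was smaller than that on tRNA and snRNA genes by 2.04 and 1.98, and larger than that on lincRNA, miRNA, ncRNA and chemoreceptor genes by 0.56, 0.84, 1.27 and 1.58 (adjusted exact permutation p of 0.000253 or lower). It differed from snoRNA genes by 0.12, which did not pass the test (adjusted exact permutation p = 0.34). Protein-coding genes held nearly all reads at both temperatures, with wildtype means of 992555 ± 296 CPM in controls and 989295 ± 1144 CPM after heat.

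**Figure D5:**
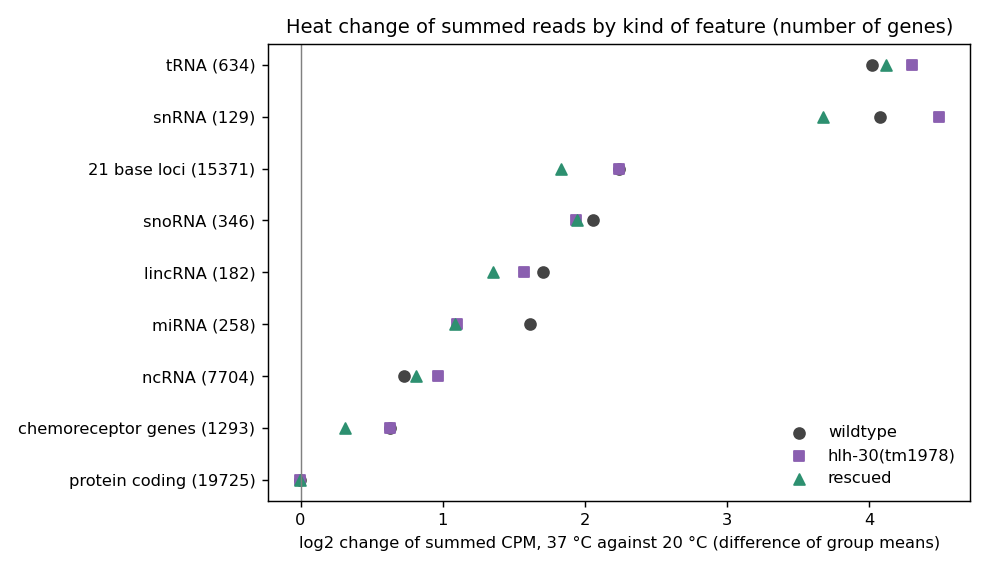
Change of log2 summed CPM from 20°C to 37°C for the 21 base loci and for other kinds of genes, with the number of genes in brackets and 1 symbol per genotype (difference of group means). The loci rose by 1.84 to 2.24, less than tRNA and snRNA genes and about as much as snoRNA genes, and protein-coding genes lie at 0.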

How the data were processed

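RNA was sequenced with paired reads of 150 bases from 4 independent replicates per group. The authors trimmed reads with Trimmomatic 0.36, mapped them with STAR 2.5.2b (WBcel235, per the labels) and counted them per gene with Subread 1.5.2, and they deposited raw counts with no normalization for 46756 genes. The strand setting of the counting is not given in the sources used here. Gene IDs were matched to Ensembl release 115 (46581 found) for symbols and gene types, while lengths, exons and strands came from the files. Library totals were 11207383 to 28091186 counts (median 13971947). Floors of 3 counts cover counting error only. A deposited file, labelled wildtype replicate 1 at 20°C, duplicated another library and was not used. Members, lists and tests were chosen with earlier results of these data known.

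Counts were summed over loci, 0.5 was added, and log2 CPM was compared by 2-sided exact permutation of temperature within genotype, or of genotype within temperature for differences between genotypes (numpy 2.4.6, scipy 1.17.1, pandas 2.3.3), with Benjamini-Hochberg adjustment within each family. Single loci were tested with edgeR 4.0.16 in R 4.3.3 (TMM, average of at least 10 counts, quasi-likelihood test, Benjamini-Hochberg over all genes, threshold 0.05) within each genotype, and interactions in 1 model of the 6 groups. Shares of loci with a read were the shares to be had after thinning each library to the smallest total. Named loci are the 10 with the highest mean CPM, up to 5 in each direction per genotype past the threshold with no overlap between groups and up to 10 past it in all 3 genotypes, with their host or neighbour genes, of which 1 is not reported here. Listed genes that passed in at least 2 genotypes are named. Figures were drawn with matplotlib 3.10.9.

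Alternatives were DESeq2 1.42.0, other scalings and count filters, a threshold of 0.01, the replicate number as a block, leaving out each replicate, the shallower libraries, leaving out the 10 loci with the most counts, loci outside exons, distances of 500 bases and 2 kb, 1 strand only, no thinning and at least 5 reads. Chosen after seeing the data were the class comparisons and linear scale, distance bins, windows, other gene types, the grouping by host response, genotype differences within classes, piRNA genes only and each locus counted once. The tests were checked on simulated data.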

Additional observations from a re-analysis of the deposited data

Results flagged for a closer look

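Within each group of 4 replicates, a value was singled out where its distance to the nearest other library was an unusually large part of the range of the group. Of 150 groups looked at, 12 had such a library, and chance alone gives about 1 in 20 groups. Chromosome III loci had 1.53 CPM in mutant replicate 2 at 20°C against 0.695 to 0.818 in the others, and 1.06 CPM in rescued replicate 1 at 20°C against 0.698 to 0.757. Chromosome X loci had 3.58 CPM in mutant replicate 3 at 37°C against 2.06 to 2.15. Loci at 1 to 5 kb before a 5′ start had 4.203 CPM in mutant replicate 4 at 20°C against 2.71 to 2.78, and loci over 5 kb from a counted gene had 3.47 CPM in rescued replicate 4 at 20°C against 0.905 to 1.21. Among single loci, 21ur-10296 had 0.510 CPM in wildtype replicate 3 at 37°C against 0.854 to 0.893, and *F39E9.25* had 0.827 CPM in mutant replicate 4 at 20°C against 1.31 to 1.39. The locus 21ur-8696 had 1.32 CPM in mutant replicate 2 at 20°C against 0.138 to 0.217, and 21ur-743 had 2.29 CPM in mutant replicate 2 at 37°C against 0.998 to 1.11. The locus 21ur-3984 had 0.388 CPM in rescued replicate 3 at 37°C against 0.714 to 0.772. For 21ur-15575, mutant replicate 2 at 20°C had 0.139 CPM where the others had 0, and rescued replicate 2 at 20°C had 0 CPM where the others had 0.0631 to 0.0754. At 20°C both rest on 0 to 2 reads per library.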

How the results depend on the processing

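The rise with heat over all loci, in the share with a read, in the 8 position classes and on chromosomes I to V kept its direction and its side of the threshold under every alternative run (1.95 to 2.26 on the log2 scale for all loci over the left-out replicates). Without the 10 loci with the most counts, chromosome X changed by 0.33 and no longer passed the test, and the comparison of loci after 3′ ends with those before 5′ starts turned to 0.41 and passed it. With loci on the strand of the gene only, that comparison was 0.39, and over the left-out replicates it ranged from -0.44, which passed, to -0.021. The difference in heat response between mutants and wildtype, 0.00 on the log2 scale, ranged from -0.21 to 0.29 over the left-out replicates (-0.21 without replicate 1, -0.09 without replicate 4).

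For single loci, the number called (3, 4 and 3 as reported in wildtype, mutants and rescued animals) was 72, 118 and 57 with no filter on low counts, where more loci were tested, and 1, 0 and 0 with at least 10 counts in every library, where fewer were. At a threshold of 0.01 it was 1 in rescued animals. Over the left-out replicates it ranged from 2 to 3, 3 to 4 and 1 to 3. A pair of changes near 0 turned sign. For *F39E9.25* in wildtype the change was 0.013 with the replicate number as a block and -0.187 to 0.057 over the left-out replicates, and for 21ur-10387 in mutants it was -0.0029 to 0.256 over the left-out replicates. The cause of these shifts was not tested.

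The correlation of same-numbered libraries ran from -0.12 to 0.482 in wildtype, 0.028 to 0.444 in mutants and -0.202 to 0.414 in rescued animals, so the numbers were not taken as pairs. With the replicate number as a block, 2, 4 and 3 loci were called, and the call of 21ur-10296 in wildtype was lost (adjusted p = 0.0666 from edgeR). Sums over loci were not refitted with a block. The planned test of loci with and without an upstream motif was not run, since no genome sequence was used here. Depth limits the tests of single loci, as 7 of 15371 averaged at least 10 reads per library.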
